A study of Mus musculus with 6 samples.

Results

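The protocadherins, the largest subfamily of the cadherin superfamily of calcium-dependent cell adhesion molecules, were examined in mouse neural progenitor cells (NPCs). Members were the genes of the deposited expression table whose symbol begins with Pcdh, which gave 35 of the 15095 listed genes. Of these, 23 belong to the clustered genes (1 Pcdha, 21 Pcdhb and 1 Pcdhg gene) and 12 are non-clustered genes, in which Pcdh is followed by a digit. PolyA RNA had been sequenced from 3 Setd2-KO and 3 WT libraries, to ask which genes depend on SETD2, the enzyme behind H3K36me3, a histone mark laid down along genes while they are transcribed. Both groups were derived from the HA36CB1 embryonic stem cell line, in which the knockout had been made with CRISPR, and both had been grown as aggregates for 4 days without and 4 days with 5 uM retinoic acid, which gave NPCs at day 8. The labels do not say whether the 3 libraries of a group came from separate differentiations, and they give the cell type as embryonic stem cells although the titles say NPC.

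The value used throughout is the authors' average log2 CPM (read counts scaled to library size, on a log2 scale), a single value per gene over all 6 libraries. It has no spread, no n and no part that belongs to the Setd2-KO or the WT libraries alone, and the depth of the libraries is unknown. The levels below are therefore a description of both groups together, with no error, and no difference between Setd2-KO and WT cells can be read from them. Setd2 itself, the deleted gene, had an average log2 CPM of 6.88, which for the same reason does not check the genotype labels. The lowest of all listed genes was at -2.54, the highest at 14.17 and the median at 4.57. The averages of the marker genes were high for the labelled stage, with a median of 7.78 over 7 listed of 8 progenitor markers and 7.71 over 8 of 8 neuronal markers. Vim, Msi1 and Pax6 led the progenitor markers at 9.82, 9.24 and 8.24, Fabp7 was lowest at 3.56 and Sox1 was not listed. Tubb3, Elavl3 and Map2 led the neuronal markers at 9.75, 8.38 and 8.28, and Rbfox3 was lowest at 4.75. Medians were 2.38 over 5 listed of 6 stem cell markers, 3.56 over 5 of 5 endoderm markers and 3.18 over 3 of 5 mesoderm and mesenchyme markers. Of the stem cell markers, Klf4, Esrrb and Pou5f1 had 3.71, 2.49 and 2.38, Nanog was lowest at -0.19 and Dppa3 was not listed. Sox17, Gata4 and Foxa2 led the endoderm markers at 4.83, 4.70 and 3.56, with Afp lowest at 3.54. Pdgfra, Col1a1 and Twist1 were the listed mesoderm and mesenchyme markers, at 3.89, 3.18 and 2.28, without Tbxt and Mixl1. Among glial markers, Mbp had 4.53 and Olig2 2.93, Gfap was lowest at -2.26 and Aqp4 was not listed. The part of cells other than progenitors in the levels below was not tested.

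Protocadherins are single-pass membrane proteins that bind the same protein on a neighbouring cell and are best known from the developing nervous system. The clustered genes lie side by side on chromosome 18 in an alpha, a beta and a gamma array. In the alpha and gamma arrays, each variable exon has its own promoter and is spliced to constant exons that the whole array shares, whereas each beta gene is read on its own. A neuron uses a few of these promoters, chosen with the help of the architectural protein CTCF and cohesin, and the combination gives the cell a surface identity with which it tells its own neurites from those of others. C-type genes at the end of the alpha and gamma arrays are the exception, since most neurons express them without such a choice. The non-clustered genes are scattered over the genome and are expressed in regional patterns.

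How completely the family was represented differed between the arrays. The GENCODE vM39 annotation of GRCm39 held 71 protocadherin genes, of which the table listed 35. All 12 non-clustered genes were listed. Of 22 annotated Pcdhb genes, 21 were listed and Pcdhb1 was not. By contrast, 1 of 15 Pcdha genes (Pcdha10) and 1 of 22 Pcdhg genes (Pcdhgc4) had a row. The alpha genes without a row were Pcdha1 to Pcdha9, Pcdha4b, Pcdha11, Pcdha12 and the C-type genes Pcdhac1 and Pcdhac2. In the gamma array, Pcdhga1 to Pcdhga12, Pcdhgb1, Pcdhgb2, Pcdhgb4 to Pcdhgb8 and the C-type genes Pcdhgc3 and Pcdhgc5 had none. These 35 alpha and gamma genes carry Ensembl numbers of 102206 and above, whereas the largest number of any gene in the table was 93358. No identifier of 102206 or above occurred among the 15095 rows (0 genes), and the absence of these 35 genes is no measurement of their expression. The Pcdha10 and Pcdhgc4 rows may each have collected reads of several genes of their array, which could not be tested here, and they are referred to below as the alpha row and the gamma row. The identifier of Pcdhb1 lies within the range of the table, and whether the authors' filter on low counts removed it was not tested.

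The share of sequence that a gene has to itself differed in the same way between the arrays. Every stretch of 100 bases, somewhat shorter than a read, of the annotated transcripts was compared with the transcripts of all other genes. Of the stretches of Pcdha10, 43.8% occurred in no other gene, and the share lay between 3.41% and 58.7% over the 15 Pcdha genes. In Pcdhgc4 the share was 63.8%, within a range of 37.8% to 67.2% over the 22 Pcdhg genes. Nearly all of the shared stretches were held in common with other genes of the family, as the constant exons are. The 22 Pcdhb genes had between 92.3% and 100% to themselves (median 99.8%), with the lowest shares in Pcdhb21 at 92.3% and Pcdhb22 at 94.6%. In all 12 non-clustered genes the share was at least 99.5%. By sequence, levels of the Pcdhb and non-clustered genes can therefore be assigned to single genes, with the limits for overlapping genes given below. Those of the alpha and gamma rows cannot. The comparison used GENCODE vM39, and how reads were assigned with the older annotation behind the listed identifiers was not tested.

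**Figure D1:**
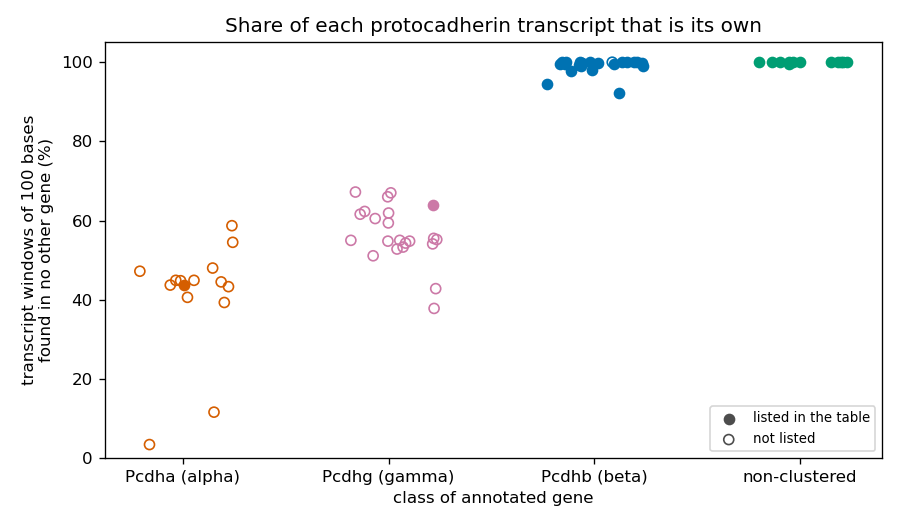
Percentage of the 100-base stretches of each annotated protocadherin transcript set that were found in no other gene, by class, with filled points for genes listed in the table and open points for those not listed. The 15 Pcdha and 22 Pcdhg genes lie between 3.41% and 67.2%, whereas the Pcdhb and non-clustered genes lie at 92.3% or above.

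The clustered genes were spread over a narrow band with the alpha and gamma rows above it, and the non-clustered genes reached above and below that band. The gamma row, Pcdhgc4 (ENSMUSG00000023036.7, chr18:37947920-37975014 on GRCm39, plus strand), had an average log2 CPM of 7.63, higher than 93.6% of all listed genes. The alpha row, Pcdha10 (ENSMUSG00000007440.7, chr18:37138256-37320716, plus strand), had 4.74, close to the median of all listed genes. The 21 Pcdhb genes lay between 0.16 and 3.60 with a median of 1.99, and 0 of them reached the median of all genes. Of the 21, 11 were below 2.08, the first quartile of the table. Among the non-clustered genes the values ran between -1.65 and 5.75 with a median of 1.79, and 3 of 12 were above the median of all genes. No Pcdhb gene was below 0, whereas 4 of 12 non-clustered genes were, against 12.4% of all listed genes.

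**Figure D2:**
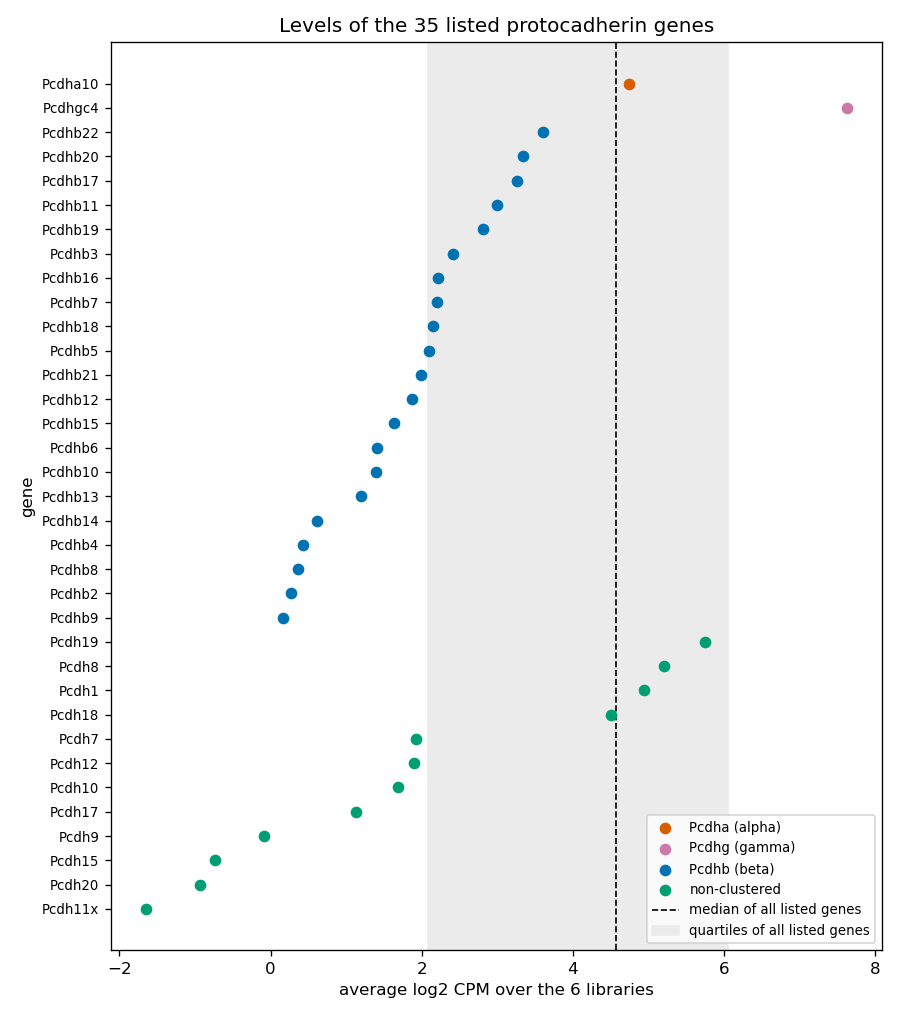
Average log2 CPM over the 6 libraries (x axis) of the 35 listed protocadherin genes (y axis), sorted within the alpha row, the gamma row, the Pcdhb genes and the non-clustered genes. The dashed line marks the median of all 15095 listed genes (4.57) and the grey band their quartiles; all 21 Pcdhb genes lie left of the line, and Pcdhgc4 lies farthest right at 7.63.

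On the linear scale, the values of the 35 genes summed to 478 CPM, or 0.0478% of the sum over all listed genes. The gamma row made up 41.3% of this sum, the 12 non-clustered genes 33.3%, the 21 Pcdhb genes 19.9% and the alpha row 5.59%. These shares count reads and not transcripts, since a longer transcript gives more reads. Within the non-clustered genes, 4 genes held 90.4% of the reads.

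To compare genes, each level was divided by the length of the union of the gene's annotated exons, which gives a log2 CPM per kb. On this scale, the 23 clustered genes had a median of -0.02 and the 12 non-clustered genes a median of -2.32, so that the clustered median was higher by 2.30 on the log2 scale. For all listed genes the median was 1.89. The difference between the medians depended on how length was counted. Pcdh10, for example, has 17502 bases of exons in all but 8255 in its longest transcript, while in 19 of the 23 clustered genes both lengths were the same. The difference was 1.30 with the longest transcript, 0.83 with the coding sequence, 0.38 with the largest exon and 0.31 with no length at all. When the genes with an average log2 CPM below 0 were left out, which removed 4 non-clustered and 0 clustered genes, it turned to -0.56. The order of the medians thus depended on the filter, and the size of their difference on the length. All lengths are those of GENCODE vM39, whereas the identifiers of the listed genes come from an older annotation. The gene models of that older annotation may differ in length, and what this does to the difference was not tested. No test was made, since genes are not replicates.

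The spread differed as well. The levels per kb of exons had an SD over genes of 1.01 in the 21 Pcdhb genes and of 3.09 in the 12 non-clustered genes. With the coding length the SDs were 1.05 and 2.70. Per kb of coding sequence the highest Pcdhb gene had 11.3 times the level of the lowest, against 196 times among the non-clustered genes. With the exon length these ratios were 16.1 and 353. The lowest non-clustered gene, Pcdh11x, has a value that the prior count compresses, so that the ratios among non-clustered genes are imprecise. Per kb of exons, 4 of the 12 non-clustered genes lay above the whole range of the Pcdhb genes, 5 below it and 3 within it. The lower end of that range was Pcdhb14 at -2.50, with Pcdh17 just below it at -2.59. Per kb of coding sequence, Pcdh17 at -0.70 lay within the Pcdhb range of -1.15 to 2.35. The gamma row was 11.7 times and the alpha row 1.75 times as high as the highest Pcdhb gene per kb of exons. Each of these rows was divided by the exon length of a single gene, although it may hold reads of several. These ratios may therefore be too high.

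**Figure D3:**
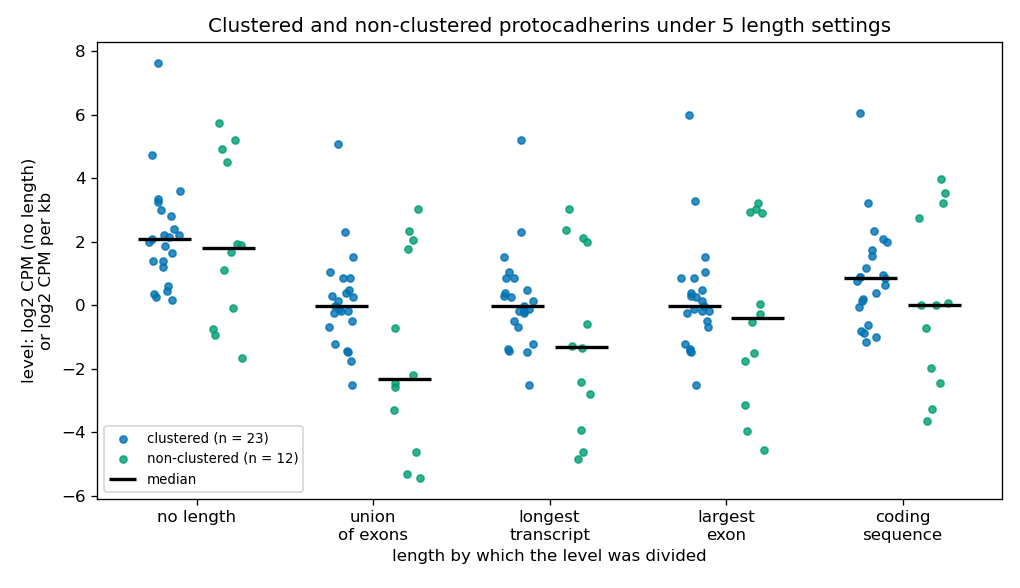
Levels of the 23 clustered and the 12 non-clustered protocadherins as average log2 CPM (no length) or as log2 CPM per kb under 4 ways to count gene length (x axis). Points are genes, with horizontal scatter added for legibility, and black bars are medians; the medians move from a difference of 2.30 (union of exons) to 0.31 (no length), while the SD over genes is larger for the non-clustered genes on each of the 5 scales (1.60 for clustered and 2.70 for non-clustered genes per kb of coding sequence).

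The Pcdhb genes are short and mostly consist of a single exon, and 16 of the 21 listed genes had a single annotated transcript. They lie in a row on the plus strand of chromosome 18, over 229.7 kb between the start of Pcdhb2 and the end of Pcdhb22. The highest level per kb of exons belonged to Pcdhb20 (ENSMUSG00000046191.5, chr18:37637317-37640875), at 1.51, followed by Pcdhb17 at 1.04, Pcdhb22 at 0.87 and Pcdhb11 at 0.85. Their average log2 CPM was 3.34, 3.26, 3.60 and 2.99, and these were also the 4 highest Pcdhb genes on that scale. At the low end, Pcdhb14 had -2.50, Pcdhb9 -1.74 and Pcdhb4 -1.46 per kb of exons. In GENCODE vM39, Pcdhb14 has an exon of 8695 bases, the longest of the array, which may differ in the older annotation. Per kb of coding sequence it had -0.64, and Pcdhb9 was the lowest at -1.15, followed by Pcdhb2 at -0.99 and Pcdhb8 at -0.86.

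Position along the array went together with level in average log2 CPM, and less so per kb of exons. Exon length ran between 2813 and 3787 bases from Pcdhb2 to Pcdhb9 and between 2801 and 8695 from Pcdhb10 to Pcdhb15. From Pcdhb16 to Pcdhb22 it ran between 3559 and 7138. The scale per kb of coding sequence does not correct for this and nearly repeats the log2 CPM. Per kb of coding sequence, which is nearly the same length in all of them, the first listed gene, Pcdhb2, had -0.99 and the last, Pcdhb22, had 2.35. In average log2 CPM, the 8 genes from Pcdhb2 to Pcdhb9 had a median of 0.92 (0.16 to 2.41), the 6 genes from Pcdhb10 to Pcdhb15 one of 1.51 (0.62 to 2.99), and the 7 genes from Pcdhb16 to Pcdhb22 one of 2.81 (1.99 to 3.60). Per kb of coding sequence, the 3 medians were -0.30, 0.26 and 1.55. On both of these scales, all 7 genes at the gamma side of the array were thus above the medians of the other stretches. The bounds of the 3 stretches were not fixed in advance. The rank correlation between order and average log2 CPM over the 21 genes was 0.54 (Pearson's r 0.58), and with the level per kb of coding sequence 0.56. Per kb of exons it was 0.31, and the stretch medians were -0.86, 0.01 and -0.02, so that the rise beyond Pcdhb15 was not seen on that scale. There, the 7 genes ran between -0.25 and 1.51 and were not all above the medians of the other stretches. These coefficients describe 21 neighbouring genes of the same libraries and carry no p.

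Direct neighbours differed nearly as much as any pair of Pcdhb genes. Per kb of coding sequence, the level differed by a mean of 1.11 between adjacent listed genes and by 1.23 between all pairs of Pcdhb genes. Pcdhb3, for example, had 1.18 between Pcdhb2 at -0.99 and Pcdhb4 at -0.80. Pcdhb11 had 1.74, whereas Pcdhb10 on its left had 0.13 and Pcdhb12 on its right 0.63. Some neighbours overlap: Pcdhb21 and Pcdhb22 share 455 bases on the same strand, and Pcdhb10 lies wholly within the span of Pcdhb9. Of the stretches compared above, 98% in Pcdhb10 and 99.1% in Pcdhb9 occurred in no other gene. For Pcdhb21 and Pcdhb22 these shares were 92.3% and 94.6%. In GENCODE vM39, Pcdhb9 and Pcdhb10 thus have little transcript sequence in common, and whether this held in the older annotation was not tested. How reads from overlaps were assigned was not stated, and the levels of Pcdhb21 and Pcdhb22 are uncertain to that extent. Pcdhb3, Pcdhb8, Pcdhb10, Pcdhb12, Pcdhb15, Pcdhb16 and Pcdhb21 were named after their values were seen.

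**Figure D4:**
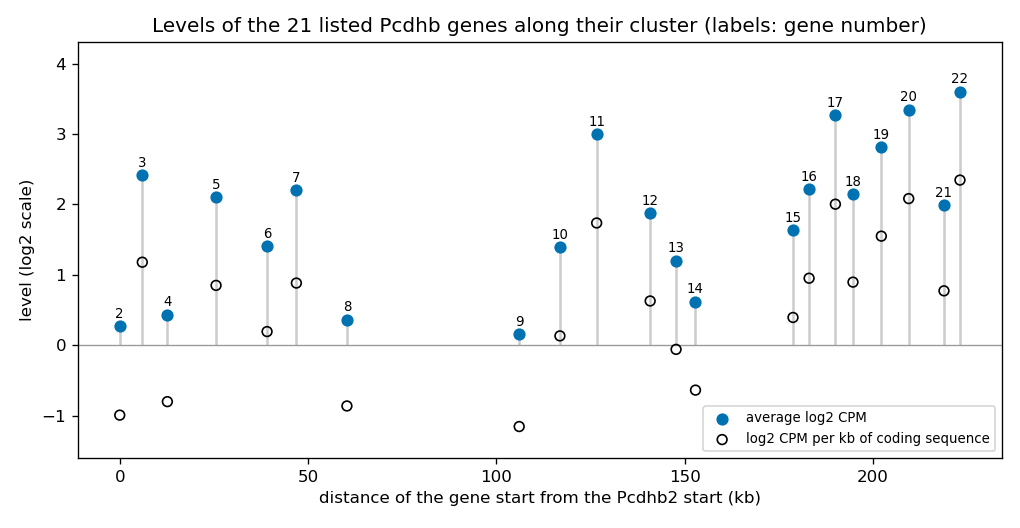
Level of the 21 listed Pcdhb genes (y axis, log2 scale) by distance of the gene start from the start of Pcdhb2 (x axis, kb), as average log2 CPM (filled) and as log2 CPM per kb of coding sequence (open), with the gene number above each point. The 7 genes from Pcdhb16 to Pcdhb22 lie between 1.99 and 3.60 on the log2 CPM scale, whereas those from Pcdhb2 to Pcdhb9 lie between 0.16 and 2.41.

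Between the beta and the gamma array lie the genes Slc25a2, a mitochondrial carrier of basic amino acids, and Taf7, a subunit of the general transcription factor TFIID. Per kb of exons they had -1.70 and 2.80. Outside the arrays, Zmat2 before the alpha array had 4.46 and Diaph1 behind the gamma array 3.32 on the same scale. Of these neighbours, Taf7, Zmat2 and Diaph1 were above, and Slc25a2 was below, most Pcdhb genes.

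Among the non-clustered genes, 4 stood above the rest. Pcdh19 (ENSMUSG00000051323.9, chrX:132483609-132589819, minus strand), in which mutations cause an X-linked epilepsy in people, had an average log2 CPM of 5.75, higher than 70.0% of all listed genes. Pcdh8 (ENSMUSG00000036422.4, chr14:80004215-80008752, minus strand), the paraxial protocadherin of tissue morphogenesis in frogs, had 5.21. Pcdh1 (ENSMUSG00000051375.9, chr18:38318963-38345869, minus strand), known from airway epithelium, had 4.93. Pcdh18 (ENSMUSG00000037892.8, chr3:49697731-49711830, minus strand) had 4.50. These 4 genes were the highest on each length scale, but their order changed: per kb of exons Pcdh8 led with 3.03, before Pcdh19 with 2.35, Pcdh18 with 2.06 and Pcdh1 with 1.78, whereas per kb of coding sequence Pcdh19 led with 3.97, before Pcdh8 with 3.53.

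A middle set of 4 genes followed in average log2 CPM. Pcdh7 (chr5:57875004-58290581, plus strand), the homologue of the NF-protocadherin of the frog neural tube, had 1.93, and Pcdh12 (chr18:38400142-38417455, minus strand), which is known from the endothelium of vessels, had 1.90. Pcdh10 (chr3:45332833-45390058, plus strand), which guides growing axons, had 1.69, and Pcdh17 (chr14:84680965-84776442, plus strand), known from synapses of the basal ganglia, had 1.13. They parted on the scale per kb of exons, with -0.70 for Pcdh12 and values between -2.59 and -2.19 for the others. Per kb of coding sequence, Pcdh12 at 0.07, Pcdh10 at 0.02 and Pcdh7 at 0.01 lay together, with Pcdh17 lower at -0.70.

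The lowest set consisted of Pcdh9 at -0.08, Pcdh15 at -0.73, Pcdh20 at -0.93 and Pcdh11x at -1.65. Pcdh15 (chr10:72935174-74485569, plus strand) forms the tip links of hair cells in the inner ear together with Cdh23. Per kb of exons Pcdh15 was at -5.30 and Cdh23 at -0.24. Pcdh9 (chr14:93250846-94128152, minus strand), Pcdh20 (chr14:88694835-88708832, minus strand) and Pcdh11x (chrX:119199956-119820316, plus strand) are expressed in the nervous system. Per kb of exons these 4 genes ran between -5.44 and -3.29, below every Pcdhb gene. Values this low rest on the fewest reads of the family.

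By the usual subgroups, the 5 delta 2 genes (Pcdh8, Pcdh10, Pcdh17, Pcdh18 and Pcdh19) had a median of 2.06 per kb of exons, with a range of -2.59 to 3.03. For the 4 delta 1 genes (Pcdh1, Pcdh7, Pcdh9 and Pcdh11x) the median was -2.74 with a range of -5.44 to 1.78. Pcdh12, Pcdh15 and Pcdh20, which belong to neither, had a median of -4.62. The ranges of the 2 delta groups overlapped, and each held both high and low genes. Several of the low genes were long: Pcdh15 spans 1550 kb, Pcdh9 877 kb and Pcdh11x 620 kb, whereas Pcdh8 spans 4.54 kb and Pcdh18 14.1 kb. Over the 12 genes the rank correlation between span and level per kb of exons was -0.57 (r -0.65 with log2 span), and with the average log2 CPM it was -0.41. Pcdh20 was an exception, a low gene of 14.0 kb, and Pcdh19 another, the highest in log2 CPM with 106 kb.

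The start of the genes differed between the classes in CpG dinucleotides, which are targets of DNA methylation and are dense in the promoters of many widely expressed genes. A window from 250 bases before to 50 bases after the annotated start was read for every listed gene on GRCm39. The 21 Pcdhb windows held a median of 5 CpG (0 to 11) and a median GC content of 39.3%. The 12 non-clustered windows held 17 (4 to 24) with 62% GC, and the windows of 15031 other listed genes held a median of 16 with 58% GC. Pcdha10 had 6 and Pcdhgc4 9, each in the window of a single gene, although the alpha and gamma rows may hold reads of several. All 21 Pcdhb windows were thus below the median of the other genes, and Pcdhb22, the highest Pcdhb gene in log2 CPM, had 0. Within the 21 Pcdhb genes the rank correlation of CpG count with average log2 CPM was -0.39, with the level per kb of coding sequence -0.40 and per kb of exons -0.26. Within the 12 non-clustered genes the same 3 coefficients were 0.34, 0.28 and 0.30. They differ in sign between the classes and are given as a description. Among the 4 lowest non-clustered genes, Pcdh20, Pcdh15 and Pcdh11x had 4, 9 and 10 CpG, but Pcdh9 had 19. Pcdh17 and Pcdh10, with 21 and 24 CpG, were only in the middle set.

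**Figure D5:**
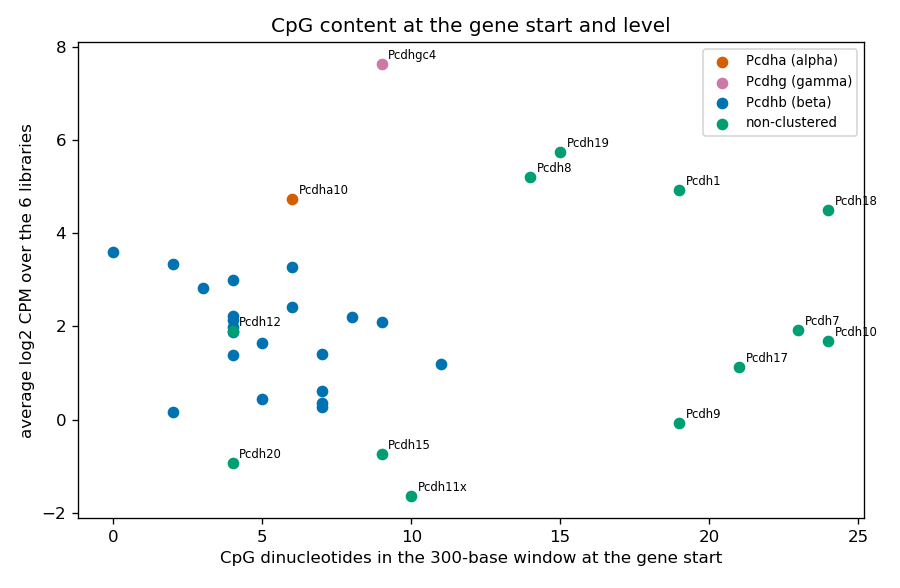
Number of CpG dinucleotides in the 300-base window at the annotated gene start (x axis) and average log2 CPM over the 6 libraries (y axis) of the 35 listed protocadherin genes, coloured by class, with names for all but the Pcdhb genes. The Pcdhb genes lie at 11 CpG or fewer, and the non-clustered genes spread between 4 and 24 CpG and the 4 highest of them have 14 to 24. Pcdha10 and Pcdhgc4 are placed by the window of a single gene, although their levels may hold reads of several.

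Start windows are shown for the 3 highest and the 3 lowest of 9 non-clustered genes by average log2 CPM, so that CpG content can be read beside level. Genes on the same chromosome as the clustered arrays were left out beforehand, which removed Pcdh1 and Pcdh12. Pcdh11x is not among these 9 either. Pcdh1, at 4.93, would otherwise rank before Pcdh18, and Pcdh11x, at -1.65, is the lowest non-clustered gene. The sequences are RefSeq windows on GRCm38.p6, read in the direction of the gene with CpG in capitals, and their counts can differ from those above because RefSeq may place the start elsewhere. Pcdh19 (chrX:133688944-133689243, minus strand) held 18 CpG, Pcdh8 (chr14:79771263-79771562, minus strand) 14 and Pcdh18 (chr3:49757267-49757566, minus strand) 23. Of the low genes, Pcdh9 (chr14:93890630-93890929, minus strand) held 18, Pcdh15 (chr10:73821617-73821916, plus strand) 8 and Pcdh20 (chr14:88471347-88471646, minus strand) 4.
Pcdh19: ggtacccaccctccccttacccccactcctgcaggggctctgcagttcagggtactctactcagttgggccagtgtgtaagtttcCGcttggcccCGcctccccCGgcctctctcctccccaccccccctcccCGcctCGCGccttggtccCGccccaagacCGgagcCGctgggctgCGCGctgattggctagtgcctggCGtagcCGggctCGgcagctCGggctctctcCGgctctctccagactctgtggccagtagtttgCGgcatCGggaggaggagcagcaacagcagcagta
Pcdh8: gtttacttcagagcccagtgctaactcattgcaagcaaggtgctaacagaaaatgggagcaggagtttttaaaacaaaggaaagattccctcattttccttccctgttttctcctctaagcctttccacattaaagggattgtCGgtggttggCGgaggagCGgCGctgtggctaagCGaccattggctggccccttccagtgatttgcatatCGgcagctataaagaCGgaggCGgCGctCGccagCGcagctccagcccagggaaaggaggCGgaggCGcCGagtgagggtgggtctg
Pcdh18: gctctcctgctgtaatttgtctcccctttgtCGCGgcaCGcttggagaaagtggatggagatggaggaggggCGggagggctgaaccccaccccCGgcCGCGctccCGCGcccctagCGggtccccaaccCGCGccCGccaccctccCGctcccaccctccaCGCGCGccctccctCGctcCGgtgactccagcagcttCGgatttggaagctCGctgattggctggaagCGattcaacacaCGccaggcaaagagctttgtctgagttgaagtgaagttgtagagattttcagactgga
Pcdh9: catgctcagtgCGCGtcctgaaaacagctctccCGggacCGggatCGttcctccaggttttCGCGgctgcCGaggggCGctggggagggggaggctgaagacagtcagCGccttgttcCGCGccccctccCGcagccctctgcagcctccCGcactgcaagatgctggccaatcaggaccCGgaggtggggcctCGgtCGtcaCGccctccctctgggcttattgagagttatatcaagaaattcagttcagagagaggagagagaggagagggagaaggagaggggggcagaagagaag
Pcdh15: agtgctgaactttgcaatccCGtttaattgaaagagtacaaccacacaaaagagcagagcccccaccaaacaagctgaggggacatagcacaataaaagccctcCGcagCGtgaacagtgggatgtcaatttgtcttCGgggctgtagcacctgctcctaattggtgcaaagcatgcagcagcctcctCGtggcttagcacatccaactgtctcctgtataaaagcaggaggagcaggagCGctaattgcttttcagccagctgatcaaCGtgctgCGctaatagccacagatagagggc
Pcdh20: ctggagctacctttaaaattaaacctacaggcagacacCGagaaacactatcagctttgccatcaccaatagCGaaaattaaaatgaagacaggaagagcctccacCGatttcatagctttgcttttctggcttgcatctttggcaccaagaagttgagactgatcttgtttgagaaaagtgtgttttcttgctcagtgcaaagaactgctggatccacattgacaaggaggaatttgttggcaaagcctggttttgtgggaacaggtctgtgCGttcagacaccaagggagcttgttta
Pcdh9, a low gene, thus held as many CpG as Pcdh19, the highest, and more than Pcdh8. A CpG is a description of the letters and says nothing about its methylation in these cells.

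The genes that are known to act on the clustered promoters were all listed and all above the median of the table. The list held 18 genes that encode CTCF, the subunits and regulators of cohesin, DNA methyltransferases, and the silencing factors Setdb1, Wiz, Smchd1 and Rest, and 18 of 18 were above the median of all listed genes. Their median was 7.04. Wiz, a zinc finger partner of histone methyltransferases, was highest at 8.07, followed by Dnmt1, the maintenance methyltransferase, at 8.0 and Dnmt3a, a de novo methyltransferase, at 7.81. Ctcf had 7.31 and the cohesin subunit Rad21 7.80. Smchd1, which silences part of the clustered genes in mice, had 6.74. Lowest was Dnmt3b, which methylates the clustered promoters in the early embryo, at 4.80.

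Partners and proteases of the proteins were likewise high. All 19 genes of this list were found, and 17 of them were above the median of all listed genes, with a median of 6.27. The highest were Ctnnb1 (beta-catenin, the effector of Wnt signalling) at 9.95, Ncstn, a subunit of the gamma-secretase that cleaves clustered protocadherins, at 8.07, and Nckap1, a subunit of the WAVE complex that binds Pcdh10, at 7.66. Adam10, the sheddase of gamma protocadherins, had 7.11. Of the kinases that gamma and alpha protocadherins inhibit, Ptk2 (FAK) had 6.88, while Ptk2b (PYK2) was the lowest of the list at 0.27.

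Other members of the cadherin superfamily give the frame for these levels. Of 48 genes, 34 were listed with a median of 4.28, and 15 were above the median of all genes. The 35 protocadherins had a median of -0.17 per kb of exons, against 0.96 for these cadherins. The highest were Celsr2, a multi-pass cadherin of planar polarity, at 9.64, the giant cadherin Fat1 at 8.0 and Cdh2 (N-cadherin), the classical cadherin of neural tissue, at 7.97. The lowest was Cdhr4 at -1.38. Cdh9, Cdh12, Cdh16, Cdh17, Cdh19, Cdh26, Cdhr3, Fat2, Dchs2, Dsc1, Dsc3, Dsg1a, Dsg3 and Dsg4 were not listed. Divided by exon length, Celsr2 had 6.05, Cdh2 4.86 and Fat1 4.02 per kb, and the gamma row, at 5.07, lay among them. The level of the gamma row may be too high, since reads of several genes may have been divided by the exon length of Pcdhgc4 alone. The 21 Pcdhb genes had a median of -0.12 on this scale, below that of the other cadherins.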

How the data were processed

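PolyA RNA of 3 Setd2-KO and 3 WT NPC samples was measured from strand-specific libraries. According to the submitters' notes, Trim Galore, STAR and edgeR were used, and NCBIM37 and mm9 are given as builds without their roles. The methods of the study name these tools too, with Salmon for quantification and a later mouse build. The gene identifiers of the table come from an older annotation than the one in those methods. The deposited value used is the average log2 CPM that the authors computed over all 6 libraries with edgeR, after a filter on low counts and TMM normalization. It includes a small prior count, which compresses low values. The remaining 4 numeric columns hold the authors' own comparison of the genotypes (2 log2 fold changes, p-value and FDR) and were not used, so that no test of genotype was made. Depth and spread per library are unknown.

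Gene identifiers without version were matched to the GENCODE vM39 annotation of GRCm39, which held 15066 of them and lacked 29; all 35 members matched. Exon lengths, positions and start windows come from that annotation, sequences shown from RefSeq. The step that counts shared 100-base stretches was tested on simulated data. All non-clustered members were named, and for each array the 4 highest and 3 lowest genes by level per kb of exons, the C-type genes and the first and last listed gene; for each list, the 3 highest, the lowest and those not listed. Ctcf, Rad21, Smchd1, Adam10, Ptk2, Cdh23 and the flanking genes were named beyond this rule, and 1 glial marker and the median of that list are not reported here. Members and lists were chosen with earlier results of these data known. Alternatives changed the gene length, the filter on low values and the genes included. Scripts used Python 3.11.15 with numpy 2.4.6, pandas 2.3.3, scipy 1.17.1 and matplotlib 3.10.9.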

Additional observations from a re-analysis of the deposited data

How the results depend on the processing

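Of 18 alternative values, 8 stayed within 0.1 log2 units of the reported value or at the same count. The clustered median per kb kept within this limit with the longest transcript, the largest exon, without genes below an average log2 CPM of 0, without C-type genes (-0.07) and with Pcdhb genes alone (-0.12), but was 0.85 with the coding sequence as length. The non-clustered median moved to -1.32 with the longest transcript, -0.40 with the largest exon, 0.018 with the coding sequence and 0.54 over the 8 genes that were not below 0 in average log2 CPM. The difference of the medians was 1.30, 0.38 and 0.83 with the longest transcript, the largest exon and the coding sequence, and 0.31 with no length. It turned to -0.56 without the low genes, which by construction left out 4 non-clustered and 0 clustered genes. Without C-type genes it was 2.25 and with Pcdhb genes alone 2.20. The current symbols of the gene identifiers gave the same 35 members. The coding length and the Pcdhb genes alone were chosen after seeing the data. No paired analysis was possible because the values are averages over all 6 libraries; leaving out a library, the pseudocount and the normalization could not be varied for the same reason. The depth behind the low genes is unknown, and the alpha and gamma rows cannot be assigned to single genes.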
